A study of Mus musculus with 4 samples.

Results

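Rgs proteins (regulators of G protein signalling) and the subunits of heterotrimeric G proteins were followed in Flk-1-positive mesoderm grown from mouse embryonic stem (ES) cells. The members are all genes whose symbol is Rgs, Gna or Gng followed by its member code, or Gnb1 to Gnb5, with Gnas left out. There were 45 of them among 14860 genes on the array, namely 19 Rgs genes, 13 alpha, 5 beta and 8 gamma subunit genes. A gene was read from a probe set annotated with 1 symbol. Where a gene had several, the probe set brightest on average was used, so 1 of 2 Rgs5 probe sets was chosen by its mean intensity, and no other member by a measured value. Another 3 probe sets of these families, annotated with several genes each, were left out.

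G protein-coupled receptors signal by loading GTP onto an alpha subunit, which then parts from its beta-gamma partner, and both act on effectors such as adenylyl cyclase and phospholipase C beta. Rgs proteins speed GTP hydrolysis on alpha subunits and so shorten the signal. In early vessels, receptors for sphingosine-1-phosphate, adrenomedullin, thrombin and apelin signal through G proteins, and Rgs5 is known as a marker of pericytes, the mural cells of small vessels.

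Each of 4 groups was 1 Affymetrix array of RNA from Flk-1-positive cells sorted on day 3 of differentiation. The groups were an inducible ER71 line, iER71, with doxycycline (1 mg/ml from day 2 to day 3, per the labels), the same line without it, Er71-/- cells and wild-type cells. ER71 is the ETS transcription factor encoded by Etv2, and Flk-1 is the VEGF receptor encoded by Kdr. Both iER71 arrays carry a wild-type genotype label, and the promoter behind the inducible gene, the nature of the Er71 allele and the number of clones are not stated in the labels. The titles of the iER71 arrays oppose their other labels: the array that received doxycycline is titled control, and the untreated array is titled ER71 overexpressed. Below, arrays are named by the doxycycline label, and every direction in this pair turns round if the titles are right. The comparison of untreated iER71 with wild type also rests on that label, and by the titles the array it uses overexpressed ER71. With no replicates, every value is a single measurement, no test or error can be given, and a difference is called by size alone, at 2-fold (1 on the log2 scale).

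Intensities were linear as deposited, with array medians between 71.3 and 72.3, and log2 was taken of them. Detected here means that at least 1 array was at or above the median over all probe sets and arrays (intensity 71.6, log2 6.16). The table holds no detection calls, so where the true background lies is unknown. Etv2 was at log2 10.50 with doxycycline, 10.05 untreated, 8.89 in Er71-deficient and 9.39 in wild-type cells, and differed by less than 2-fold in both pairs. The sorted marker Kdr lay between log2 9.67 and 10.19 on the 4 arrays. Of 15 endothelial markers, each detected, 12 were at least 2-fold higher with doxycycline than without, and 6 were at least 2-fold lower in Er71-deficient than in wild-type cells. Among the 12, Cldn5, Emcn and Esam reached the detection level on the doxycycline array alone. Because the samples are bulk RNA, fewer cells of a type and less RNA per cell cannot be told apart.

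Of the 45 members, 26 were detected: 9 Rgs, 8 alpha, 3 beta and 6 gamma genes. A gene bright on 1 array passes this filter through that array, so counts over the 26 are given beside counts over all 45. Just inside the detection level lay Rgs17, with its brightest array at log2 6.28, and Rgs3 at 6.31. Just outside it lay Gnb5 at log2 6.16, which reached an intensity of 71.3, and Gnaz at 6.14. Exact equality between arrays is common in the deposited values: 26 of the 45 members (57.8%) had the same value on at least 2 arrays, as did 55.3% of all genes, and 6 had the same value on all 4, as did 10.9% of genes.

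**Figure D1:**
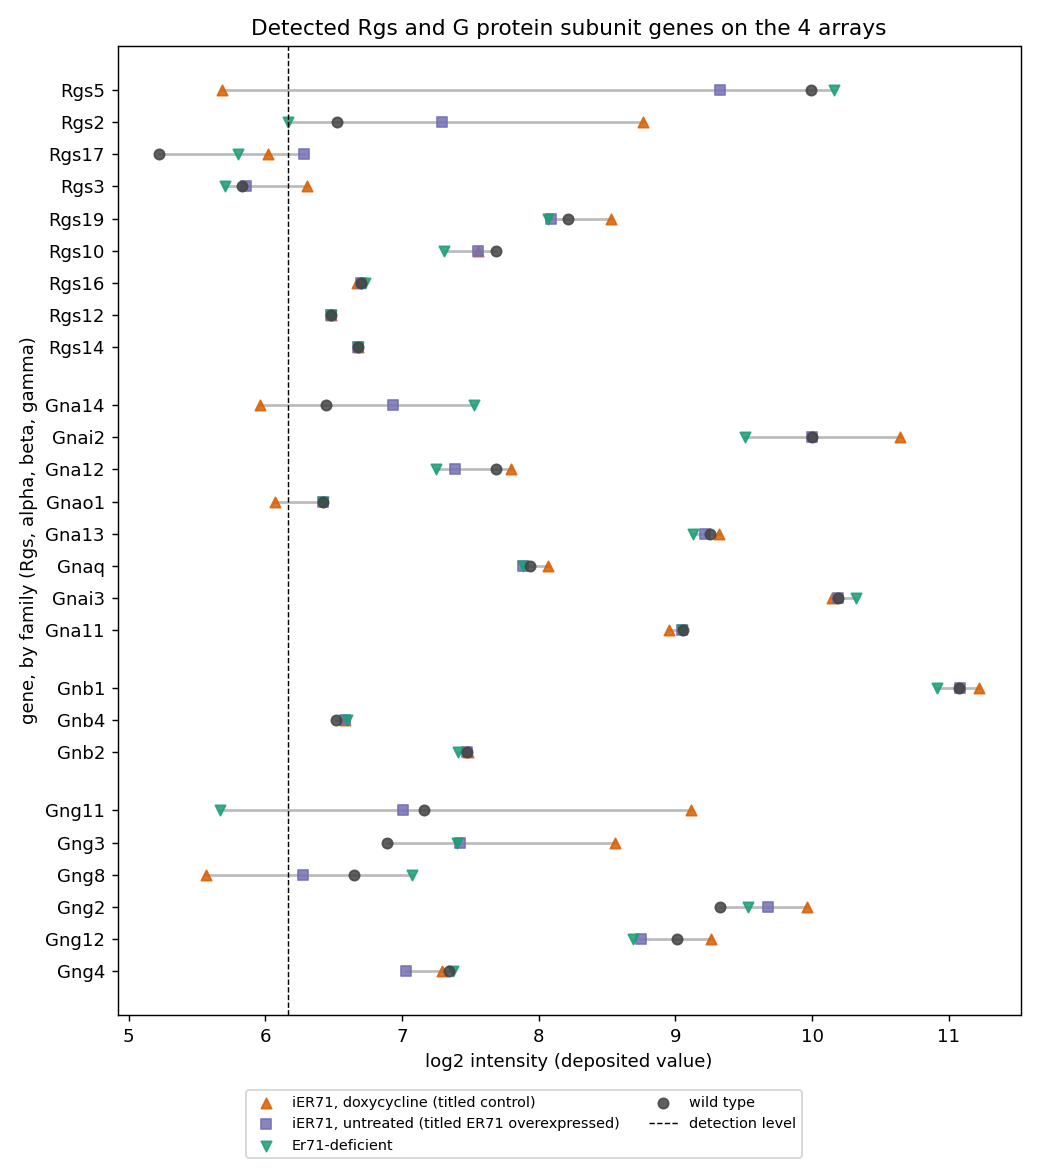
Log2 intensity (x axis) of the 26 detected members (y axis, grouped as Rgs, alpha, beta and gamma genes and ordered by their range), with 1 symbol per array, a line over the range of the 4 arrays and the detection level dashed. Rgs5 spans the widest range, 4.48 on the log2 scale, because the doxycycline array lies far below the other three, while Rgs12 and Rgs14 are equal on all 4 arrays.

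Between the iER71 arrays, 4 members were at least 2-fold apart: Rgs2, Gng11 and Gng3 were higher with doxycycline (titled control), and Rgs5 was higher without it (titled ER71 overexpressed). They made up 15.4% of the 26 detected members, where 3.64% of 8843 detected genes were that far apart, and 8.89% of all 45 members, where 2.66% of 14860 genes were. By direction, 2.41% of detected genes passed 2-fold upwards with doxycycline and 1.23% downwards. The members were chosen with the Rgs5 value known, so these shares are a description and support nothing. The median difference (doxycycline minus untreated) was 0.06 on the log2 scale over the detected members and 0.00 over all detected genes.

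Between Er71-deficient and wild-type cells, 2 members were at least 2-fold apart: Gng11 was lower and Gna14 higher in deficient cells. That is 7.69% of the detected members, where 2.01% of detected genes were that far apart, and 4.44% of all 45, where 1.84% of genes were. By direction, 0.43% of detected genes passed 2-fold upwards in deficient cells and 1.58% downwards. As deficient minus wild type, the median was -0.0037 over the detected members and -0.01 over all detected genes. No Rgs or beta gene passed 2-fold in this pair. Gng11 was the 1 member past 2-fold in both pairs, which share no array. That is 3.85% of the detected members, where 0.837% of detected genes were past it in both. The members were chosen with earlier results of these data known, so these shares too are a description and support nothing.

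Rgs5 encodes a small Rgs protein that acts on Gi and Gq alpha subunits. Its brighter probe set read log2 5.69 with doxycycline, 9.33 untreated, 10.16 in deficient cells and 9.99 in wild type. The doxycycline array alone was low and lay below the detection level, and the other three were bright. The iER71 arrays differed by -3.64 on the log2 scale (12.5-fold), whereas deficient and wild-type cells differed by 0.17. The untreated iER71 array differed from wild type by -0.66.

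The dimmer Rgs5 probe set read log2 5.74 with doxycycline, 7.29 untreated, 7.29 in deficient cells and 7.37 in wild type. It too was below the detection level on the doxycycline array alone. Its difference between the iER71 arrays was -1.55 (2.93-fold), so both probe sets passed 2-fold in the same direction but with sizes far apart, and the mean over both was -2.60. The untreated and deficient arrays were exactly equal on this probe set.

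Pericyte and smooth muscle markers were set beside Rgs5. Of 12 listed, 8 were detected, and Cspg4, Myh11, Des and Abcc9 stayed below the detection level on all 4 arrays. Between the iER71 arrays, 1 of the 8 was at least 2-fold lower with doxycycline, namely the calponin gene Cnn1 (-1.35 on the log2 scale), and none was higher by that size. Pdgfrb, a receptor used to identify pericytes, was at log2 5.47 with doxycycline and between 6.32 and 6.44 on the other arrays, a difference of -0.84 in the iER71 pair. The summed intensity of the 12 was 1146 with doxycycline, 1450 untreated, 1901 in deficient cells and 1474 in wild type, lowest and highest on the same arrays as the brighter Rgs5 probe set but not the dimmer one, which was highest in wild type. The members of the list did not move as one: with doxycycline Mcam differed by 0.53, and in the deficient pair Cnn1 was higher (1.61) and Acta2 lower (-1.26), with a median of -0.02. Acta2 was lower than wild type by the same amount on the untreated iER71 array. The part of pericyte and smooth muscle cells in the Rgs5 values was not tested.

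Markers of other mesoderm were also read. Of 6 detected markers of the sorted mesoderm, 3 were at least 2-fold lower (Pdgfra by -2.37, Mixl1 by -2.03 and Eomes by -1.60 on the log2 scale), and none was higher by that size, while Kdr differed by 0.22. Of 8 detected cardiac mesoderm markers, 3 were lower by 2-fold or more with doxycycline, among them Myl7 by -1.99, and none was higher by that size. In the deficient pair 3 cardiac markers were at least 2-fold higher in deficient cells (Myl7 by 2.10, Mesp1 by 1.36 and Isl1 by 1.15), as was Pdgfra (1.33), and none of these markers was lower by that size. Isl1 was also higher in untreated iER71 than in wild-type cells (1.06), so for this gene the wild-type array alone was low, at log2 6.49. The part of these kinds of mesoderm in the values of Rgs5, and of Gna14 below, was not tested.

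Rgs2, whose protein acts mainly on Gq alpha subunits, was at log2 8.77 with doxycycline, 7.29 untreated, 6.17 in deficient cells and 6.53 in wild type. Both iER71 arrays lay above the other two, and the deficient array stood barely above the detection level. The doxycycline array was 2.78-fold above the untreated one (1.47 on the log2 scale). The untreated iER71 array was also above wild type, by 0.76, while deficient cells differed from wild type by -0.36, under 2-fold.

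None of the remaining detected Rgs genes passed 2-fold in either pair. Rgs19, a regulator of Gi alpha subunits, was highest with doxycycline at log2 8.53, with the other arrays between 8.07 and 8.22. Rgs10, a compact regulator of Gi subunits, was lowest in deficient cells at 7.31, against 7.56 on both iER71 arrays and 7.68 in wild type. Rgs3 reached the detection level with doxycycline alone, at 6.31. Rgs16 varied by 0.06 over the arrays, and Rgs12 and Rgs14, larger proteins that carry further signalling domains, did not vary at all as deposited (log2 6.48 and 6.68).

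Rgs17, which belongs to the group of Rgs proteins acting on Gz and Gi subunits, was the 1 member past 2-fold between the untreated iER71 and wild-type arrays, a comparison that shares an array with each of the other comparisons. In that comparison 0.995% of detected genes were that far apart. Its log2 intensity was 6.02 with doxycycline, 6.28 untreated, 5.80 in deficient cells and 5.22 in wild type. Only the untreated array was above the detection level, so the difference of 1.06 is between values near or below it.

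The Rgs genes known from blood cells, Rgs1, Rgs13 and Rgs18, were below the detection level on all 4 arrays, with no value above log2 4.09. The same held for Rgs6, Rgs7, Rgs9 and Rgs11, which form the group whose proteins pair with the beta subunit of Gnb5, and for Gnb5 itself. Rgs6, Rgs7 and Rgs9 were each equal on all 4 arrays. Rgs4, a close relative of Rgs5, was at log2 4.15 with doxycycline and between 4.74 and 4.85 elsewhere, all below detection. Rgs8 and Rgs20 completed the undetected Rgs genes, with ranges of 0.09 and 0.02 over the arrays.

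**Figure D2:**
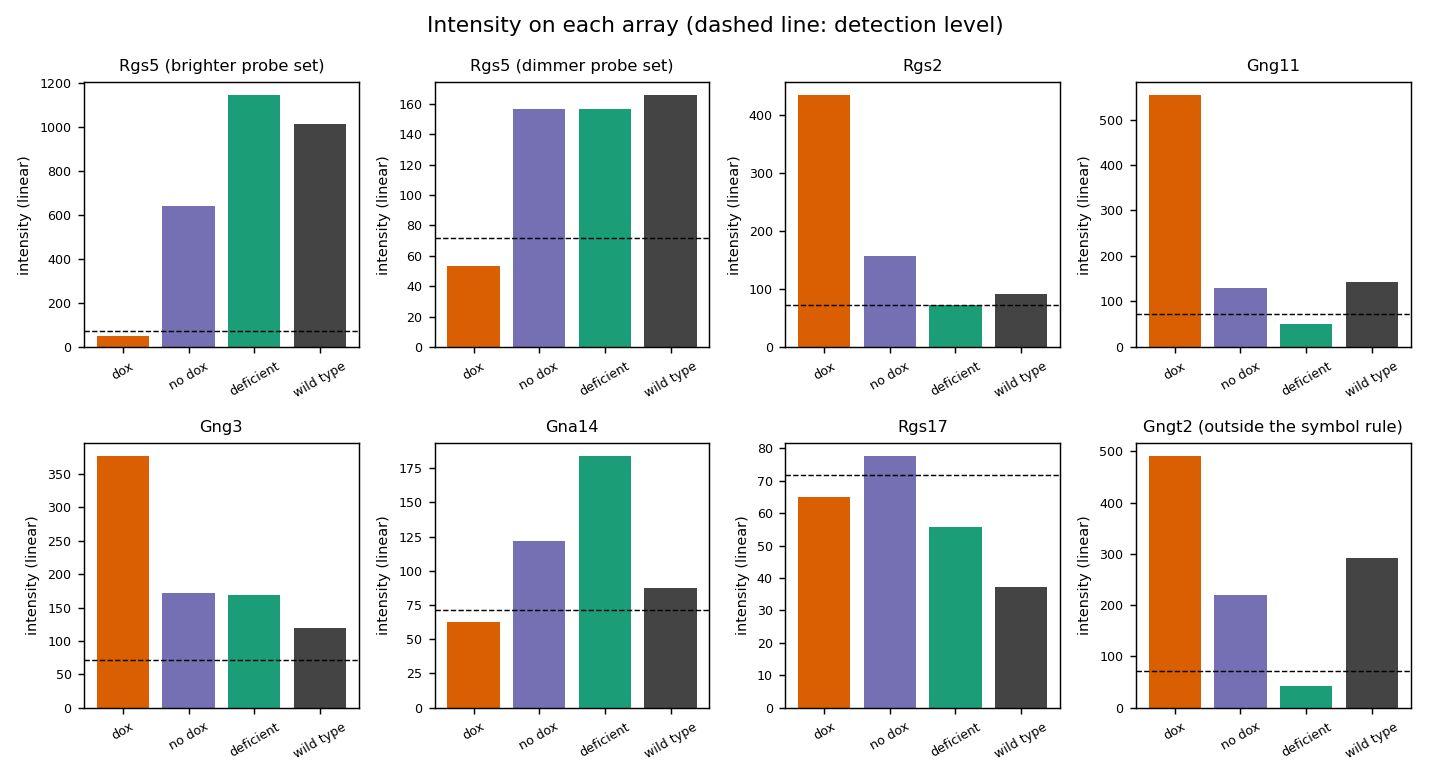
Linear intensity (y axis, from 0, scaled for each panel) on the 4 arrays (x axis) for both Rgs5 probe sets, Rgs2, Gng11, Gng3, Gna14, Rgs17 and Gngt2, with the detection level of 71.6 dashed; each bar is 1 array. Rgs5 falls below the dashed line on the doxycycline array in both panels, and Gng11 and Gngt2 fall below it on the Er71-deficient array.

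Among alpha subunits, none of the 8 detected genes was 2-fold apart in the iER71 pair and 1, Gna14, was in the deficient pair. Gna14, a Gq-class subunit that activates phospholipase C beta, was at log2 5.96 with doxycycline, 6.93 untreated, 7.52 in deficient cells and 6.45 in wild type. It was brightest in deficient cells, and the doxycycline array alone was below the detection level. Deficient cells were 2.11-fold above wild type (1.08 on the log2 scale), and the iER71 arrays differed by -0.97 (1.96-fold), just short of the threshold. The other Gq-class subunits detected, Gnaq and Gna11, varied by 0.18 and 0.10 over the arrays. Gna15, the Gq-class subunit of blood cells, was not detected, its highest value being log2 4.82.

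Gi-class subunits inhibit adenylyl cyclase. Gnai2 was at log2 10.64 with doxycycline, 10.00 untreated, 9.51 in deficient cells and 10.00 in wild type. It was highest with doxycycline and lowest in deficient cells, by 0.64 and -0.49 in the respective pairs, both under 2-fold. Gnai3 ran between log2 10.14 and 10.32, with its highest value in deficient cells. Gnao1, best known from neurons, was equal on 3 arrays at log2 6.42 and lower with doxycycline at 6.07, below the detection level.

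Gna12 and Gna13 form a class of their own among alpha subunits, and Gna13 is known to be needed for vessel formation in the mouse embryo. Gna12 was at log2 7.79 with doxycycline, 7.38 untreated, 7.25 in deficient cells and 7.69 in wild type, and Gna13 varied by 0.20 between log2 9.13 and 9.32. Both were highest with doxycycline and lowest in deficient cells, by amounts under 2-fold. The sensory subunits Gnat1 and Gnat2 (photoreceptors) and Gnal (olfactory and striatal neurons), with Gnaz, were not detected on any array.

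Beta subunits hardly differed. Gnb1 lay between log2 10.92 and 11.22, Gnb2 between 7.41 and 7.49 and Gnb4 between 6.52 and 6.60. Gnb3, known from photoreceptors and taste cells, was not detected and varied by 0.04. No beta subunit was 2-fold apart between any of the arrays compared.

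Gamma subunits anchor the beta-gamma pair in the membrane through a lipid tail. Gng11, one of the gamma subunits that carry a farnesyl tail, was at log2 9.11 with doxycycline, 7.01 untreated, 5.67 in deficient cells and 7.16 in wild type. The doxycycline array was the highest, the untreated and wild-type arrays lay close together, and the deficient array alone was below the detection level. The iER71 arrays differed by 2.10 (4.30-fold, higher with doxycycline), and deficient cells were 2.82-fold below wild type (-1.49 on the log2 scale). The untreated iER71 array differed from wild type by -0.15 on the log2 scale.

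The other farnesylated gamma subunits, Gngt1 and Gngt2, are named for photoreceptors and fall outside the symbol rule; they were added after their values were seen. Gngt2 was at log2 8.94 with doxycycline, 7.78 untreated, 5.40 in deficient cells and 8.19 in wild type. It had the same order over the arrays as Gng11, 2.24-fold higher with doxycycline than without and 6.94-fold lower in deficient cells than in wild type. Gngt1 was far below the detection level on each array, at no more than log2 2.43.

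Endothelial markers were set beside Gng11. In the iER71 pair 12 of the 15 passed 2-fold in its direction, while Robo4 differed by 0.00 and Plvap by 0.13, and in the deficient pair 6 of the 15 did. Their summed intensity over 15 genes was 8554 with doxycycline, 2485 untreated, 828 in deficient cells and 3060 in wild type. Their median differences were 1.54 in the iER71 pair and -0.68 in the deficient pair on the log2 scale. The part of endothelial cells in the Gng11 values was not tested.

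Gng3, a gamma subunit best known from brain, was at log2 8.56 with doxycycline, 7.43 untreated, 7.40 in deficient cells and 6.89 in wild type. The doxycycline array stood above the rest by more than 2-fold, at 2.19 times the untreated array, and wild type was the lowest. For Gng3, deficient cells were above wild type, by 0.51 on the log2 scale, where for Gng11 they were below. Gng8, known from olfactory and vomeronasal neurons, ran the other way, with log2 5.57 with doxycycline, 6.28 untreated, 7.07 in deficient cells and 6.65 in wild type. Its differences of -0.71 and 0.42 stayed under 2-fold.

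The widely expressed Gng12 and Gng2 were both highest with doxycycline, at log2 9.26 and 9.97, and ranged over 0.57 and 0.64. Gng12 was lowest in deficient cells at 8.69, and Gng2 was lowest in wild type at 9.32. Gng4 was lowest untreated, at 7.03, with the other arrays between 7.29 and 7.38. Gng7 and Gng13 were not detected.

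By the order of the arrays, 12 of the 45 members (26.7%) were highest with doxycycline and lowest in Er71-deficient cells, an order held by 11.6% of all 14860 genes. They were Gna12, Gna13, Gnai2, Gnb1, Gnb2, Gng11, Gng12, Gng13, Rgs2, Rgs3, Rgs13 and Rgs19, and 10 of them were detected. The opposite order, lowest with doxycycline and highest in deficient cells, was held by 5 members (11.1%) and by 6.82% of all genes: Rgs5, Rgs16, Gna14, Gnai3 and Gng8. These orders were chosen after the values were seen, carry no size, and for Gnb2, Rgs16, Gnai3 and Gna13 rest on ranges of 0.07, 0.06, 0.18 and 0.20. The dimmer Rgs5 probe set did not hold its order, being highest in wild type.

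**Figure D3:**
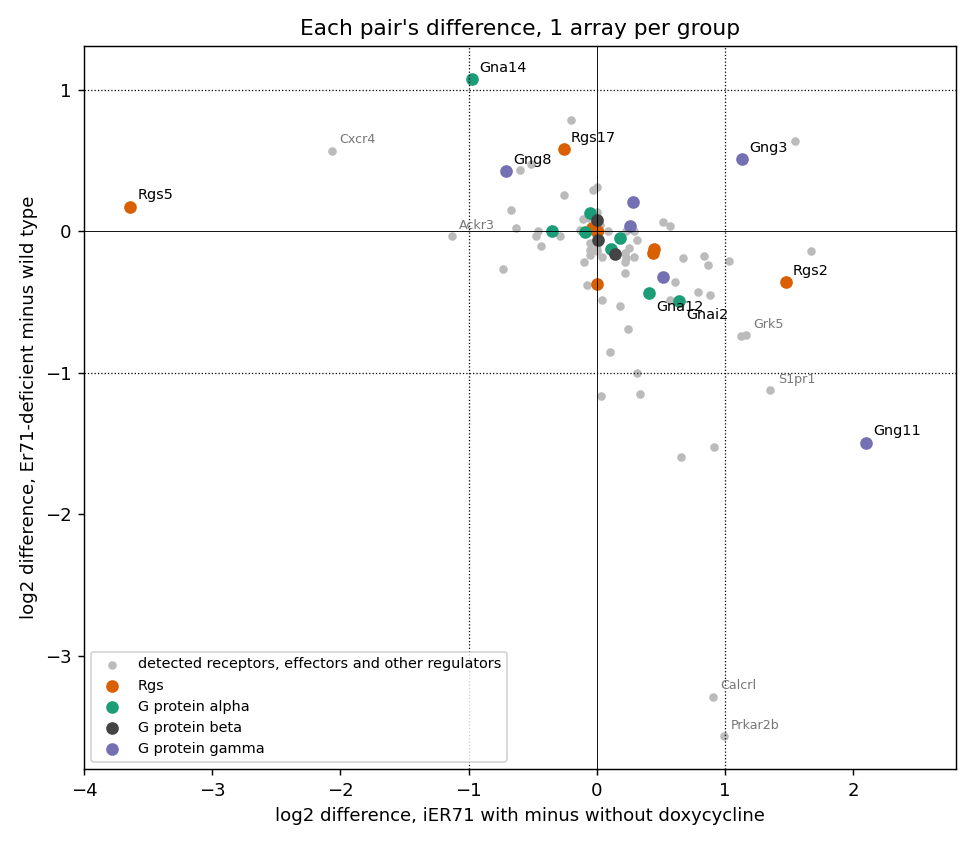
Log2 difference between the iER71 arrays (x axis, with minus without doxycycline) against that between Er71-deficient and wild-type cells (y axis) for the 26 detected members, coloured by family, and for the detected receptors, effectors and other regulators in grey; dotted lines mark 2-fold. Gng11 (2.10 and -1.49) is the 1 member beyond the lines on both axes, Rgs5 stands far left at -3.64 with 0.17 on the y axis, and most members cluster near 0.

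Receptors of the G protein-coupled family were read from a list of 79, of which 63 were on the array and 34 detected. In the iER71 pair 2 were higher with doxycycline by 2-fold or more, the orphan receptor Gprc5b (1.54 on the log2 scale) and the sphingosine-1-phosphate receptor S1pr1 (1.36). There, 2 were lower by that size, the CXCL12 receptors Cxcr4 (-2.06) and Ackr3 (-1.13). In the deficient pair 7 of the 34 were at least 2-fold lower than in wild type and none higher. Of all detected genes, 1.58% were lower by that size in this pair and 0.43% higher. The largest were the adrenomedullin receptor component Calcrl (-3.29), the endothelin receptor Ednrb (-1.60), the endothelial adhesion receptor Adgrl4 (-1.53), the nucleotide receptor P2ry1 (-1.16), the thrombin receptor F2r (-1.15) and S1pr1 (-1.12). P2ry1 reached the detection level in wild-type cells alone, and both iER71 arrays were below it. Ednrb stood barely above that level in wild type, at log2 6.20, and untreated iER71 was below it. The list's median was -0.02 in the iER71 pair and -0.09 in the deficient pair.

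Of 23 detected effectors, phospholipase C beta gene Plcb4 was the 1 gene at least 2-fold higher with doxycycline (1.03), and none was lower. In the deficient pair Prkar2b, a regulatory subunit of protein kinase A, was the 1 gene past 2-fold. It was at log2 9.93 with doxycycline, 8.94 untreated, 6.36 in deficient cells and 9.93 in wild type, so the deficient array alone was low, by -3.57 against wild type. The effectors' medians were 0.22 and -0.18 in the respective pairs.

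Among 19 detected genes listed as other regulators, 3 were higher with doxycycline by 2-fold or more and none lower. They were Rgl1 (1.67), the receptor kinase Grk5 (1.17) and the arrestin Arrb2 (1.12). Rgl1 is an exchange factor for Ral, which is not a heterotrimeric G protein. None passed 2-fold in the deficient pair, where Arrb2 and Grk5 differed by -0.74 and -0.73. The medians were 0.04 and 0.00. Across these 3 lists the genes 2-fold apart in the deficient pair were all lower in deficient cells. Of the 178 detected genes that far apart in this pair 140 were lower, so this direction is not particular to the lists. Among the members, Gng11 was lower there and Gna14 higher.

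Of the 5 members past 2-fold in the iER71 or deficient pair, promoters are shown for the 4, all but Gng11, with an entry in the RefSeq promoter table of GRCm38.p6, from 250 bases before to 50 after the annotated start, because ER71 is an ETS factor and ETS factors bind around a GGAA core. Of the 45 members 33 had at least 1 entry. Capitals mark GGAA or its complement TTCC. The windows are chr1:169655251-169655550 on the plus strand for Rgs5, chr19:16435417-16435716 on the plus strand for Gna14, chr1:144004100-144004399 on the minus strand for Rgs2 and chr19:8839197-8839496 on the minus strand for Gng3.
Rgs5: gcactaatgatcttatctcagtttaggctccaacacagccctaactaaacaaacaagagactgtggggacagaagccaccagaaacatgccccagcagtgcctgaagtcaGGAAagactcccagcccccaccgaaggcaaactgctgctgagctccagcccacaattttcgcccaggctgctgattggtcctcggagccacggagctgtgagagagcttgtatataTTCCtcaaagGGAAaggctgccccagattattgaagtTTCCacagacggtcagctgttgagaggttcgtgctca
Gna14: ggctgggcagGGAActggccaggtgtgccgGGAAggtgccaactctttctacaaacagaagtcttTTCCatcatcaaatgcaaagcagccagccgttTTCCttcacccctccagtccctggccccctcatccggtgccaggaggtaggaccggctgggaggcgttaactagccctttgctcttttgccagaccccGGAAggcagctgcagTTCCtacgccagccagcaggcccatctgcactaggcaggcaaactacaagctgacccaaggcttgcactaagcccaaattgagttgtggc
Rgs2: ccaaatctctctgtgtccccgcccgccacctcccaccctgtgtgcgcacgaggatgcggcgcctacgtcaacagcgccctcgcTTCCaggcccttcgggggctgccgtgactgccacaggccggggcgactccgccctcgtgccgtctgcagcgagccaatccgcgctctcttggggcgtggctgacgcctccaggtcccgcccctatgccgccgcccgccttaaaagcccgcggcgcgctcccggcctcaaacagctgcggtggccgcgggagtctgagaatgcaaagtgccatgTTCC
Gng3: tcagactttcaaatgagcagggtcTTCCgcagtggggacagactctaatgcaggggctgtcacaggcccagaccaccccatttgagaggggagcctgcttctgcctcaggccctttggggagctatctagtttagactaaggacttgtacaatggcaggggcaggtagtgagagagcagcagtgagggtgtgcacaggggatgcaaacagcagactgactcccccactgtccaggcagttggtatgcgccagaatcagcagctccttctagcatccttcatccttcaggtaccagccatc
The Rgs5 window holds GGAA 2 times and TTCC 2 times, that of Gna14 holds each 3 times, that of Rgs2 holds TTCC 2 times and that of Gng3 holds TTCC 1 time. On either strand GGAA occurs in 96.0% of 32851 promoter windows of this length and in 88.4% of the 43 windows of members, so its presence sets none of these apart. The longer CCGGAA, which contains GGAA, was found on either strand in 14.9% of all windows and in 3 of the 43 windows of members (6.98%). Of the 4 shown, that of Gna14 alone held it, 1 time. These matches are letters in a window and not measured binding sites.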

How the data were processed

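RNA of Flk-1-positive cells was measured on 4 Affymetrix arrays, 1 per group, and the table the authors deposited holds linear intensity values of 23332 probe sets. Per the submitters' processing notes, the authors used Affymetrix Expression Console, RMA and build mm8; versions and the order of steps are not given. RMA usually returns log2 values, so log2 was taken here of the deposited linear intensity. Gene names came from the platform annotation, which gave exactly 1 symbol to 14996 probe sets; all 45 members were found by symbol in the RefSeq gene table. Differences were counted past 2-fold, with no test, since each group had 1 array. Fold calls were tested on simulated data with known changes, which checks the counting and says nothing on how reliable a single array is. The alternatives were median centring, quantile normalization and cyclic loess (limma 3.58.1 in R 4.3.3), an offset of 32 before log2, no or a stricter detection filter (log2 7.16), the mean over probe sets, a 1.5-fold threshold and the direction of the titles. Other steps used Python 3.11.15 with pandas 2.3.3. Genes named were Etv2, Kdr, members past 2-fold, each probe set of Rgs5, other members by family and up to 6 genes per pathway list and pair; Gngt1 and Gngt2 were added after their values were seen. Members, lists and tests were chosen with earlier results of these data known. Precision is limited by the number of arrays.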

Additional observations from a re-analysis of the deposited data

How the results depend on the processing

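The 4 members past 2-fold in the iER71 pair were the same genes under median centring, cyclic loess, the offset, both other detection filters and the mean over probe sets. Quantile normalization gave 5, adding Gna14 just past the threshold, and so 2 members past 2-fold in both pairs. With it, 3.53% of detected genes were that far apart in the iER71 pair and 0.791% in both pairs. At 1.5-fold, by construction looser, the counts were 7 in the iER71 pair, 3 between untreated iER71 and wild type, and 2 in both pairs. The shares of all detected genes rose as well, to 9.48%, 4.14% and 3.01% respectively. With the offset 1 member was left in the deficient pair, since Gna14 fell to 0.86, and 0 between untreated iER71 and wild type. The stricter detection filter, which kept 18 members and left out Rgs17, also gave 0 there. By the titles the iER71 pair has 1 member higher and 3 lower on the array titled ER71 overexpressed, and Gng11 then has the same direction in both pairs. The comparison of untreated iER71 with wild type was not repeated with the array titled control. Of 50 values of members past 2-fold under other settings, 48 stayed on their side of the threshold and none changed sign where called. No paired analysis was possible because each group had 1 array. Values near the detection level limit what the folds of Rgs17, Gna14 and the dim sides of Rgs5 and Gng11 can show. The same holds for the folds of Ednrb and P2ry1, and for the dim side of every other named gene with an array below that level. Among these are Hbb-y, Calcrl, Adgrl4 and Gngt2, dim in deficient cells. Cxcr4, Ackr3, Pdgfra, Pdgfrb, Myl7 and Gng8 were dim with doxycycline, and Dppa4 and Utf1 were dim without it.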

Other observations

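Several members lie next to a relative in the reference gene order, and the spread of each over the 4 arrays is given for some such neighbours, chosen after the values were seen. On chromosome 1, Rgs5 (brighter probe set) ranged over 4.48 on the log2 scale and its neighbour Rgs4, undetected, over 0.69. On the same chromosome Rgs2 ranged over 2.60, and the undetected Rgs13 and Rgs1 beside it over 0.54 and 0.03. On chromosome 19, Gna14 ranged over 1.56 and its neighbour Gnaq over 0.18. On chromosome 10, Gna11 ranged over 0.10 and the undetected Gna15 over 0.27.

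Markers of further cell types beside the sorted mesoderm were also read. Of 8 detected blood markers none was 2-fold apart in the iER71 pair, and 3 (Hbb-y, Lmo2 and Hba-x) were at least 2-fold lower in Er71-deficient than in wild-type cells. Hbb-y reached the detection level in wild-type cells alone, and untreated iER71 also differed from wild type, by -3.08 on the log2 scale. Hba-x was also lower than wild type in untreated iER71 (-0.71), and lowest with doxycycline. Of 9 fibroblast feeder markers on the array 3 were detected, and none was 2-fold apart in either pair. Of 8 detected pluripotency markers, Dppa4 and Utf1 were higher and Tdgf1 lower with doxycycline by 2-fold or more, and Nanog was at least 2-fold higher in deficient cells. Dppa4 and Utf1 reached the detection level on the doxycycline array alone, so they count as detected only through the array where they were higher.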
